A study of Drosophila melanogaster with 8 samples.

Results

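A set of 9 genes of the Fos and Jun invasion program and of matrix proteolysis were followed in macrophages sorted from wild type (WT) and CG9005 mutant embryos of Drosophila melanogaster. They were chosen by name as kay, Jra, cher, dia, TM4SF, puc, Mmp1, Mmp2 and Timp, 9 of the 17494 genes in the deposited tables. Each library holds the polyA RNA of mCherry-positive cells from dissociated embryos kept at 29°C and collected for stage 11, with 4 libraries a genotype. Both groups carry the same genotype label, 3xMcherry-tagged macrophages, and only the titles name WT and CG9005 mutant. A separate stage field counts up along the libraries and is lower in every WT library than in every mutant library. This field splits the groups as the titles do, and it conflicts with the growth protocol, which gives stage 11 for all libraries. The labels used here name neither the mutant allele nor the promoter that drives mCherry. The labels do not say whether replicates were collected separately, so p-values here measure only the spread between libraries, which may be technical.

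AP-1 is a dimer of a Fos and a Jun protein, both of the basic leucine zipper (bZIP) class, and in the fly kay encodes Fos and Jra encodes Jun. The kinase JNK activates this pair, and the phosphatase made from puc switches JNK off again, so puc is both an output and a brake of the pathway. In embryonic macrophages Fos is known to raise the mRNAs of the filamin cher and the tetraspanin TM4SF and to act with Rho1 and the formin Dia on the actin cortex of cells that push into the germband. Mmp1 and Mmp2 are the fly's matrix metalloproteases, and Timp is the secreted inhibitor of both. CG9005, also called atossa, is a nuclear protein that macrophages need for this same invasion step.

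The libraries held 15782570 to 18942786 reads, as recovered from the deposited values. CG9005 mRNA itself averaged 87.8 ± 18.4 TPM (transcripts per 1000000) in WT, against 89.1 ± 12.2 TPM in the mutant (SD, n = 4 each), so its level does not check the sample labels. Of 16 macrophage markers 12 passed the filter on low values, and their summed level was 4981 to 8841 TPM in WT and 6732 to 8560 TPM in the mutant. Of these 12 genes 5 lay above 0 and 7 below, and 2 were called, in opposite directions (beside 1.67% of all tested genes). Sr-CI, a scavenger receptor, rose by 0.91 on the log2 scale, with means of 394 ± 20.7 (WT) and 739 ± 29.1 TPM (mutant; limma adjusted p = 0.000818). The glial and blood cell fate gene gcm2 fell by 0.93 on that scale, with means of 31.5 ± 1.91 and 16.4 ± 3.85 TPM (limma adjusted p = 0.0429), a call that 5 of 19 alternatives kept, while that of Sr-CI was kept by 18, all but the stage field as covariate. Both were named after their values were seen. NimC4, a receptor for dying cells, was the highest of the markers at 5897 ± 1646 and 6181 ± 872 TPM. The macrophage receptor gene eater was at 0 in all libraries, and Hml and NimC1 had group means of at most 0.13 TPM.

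None of the 9 genes differed between the genotypes past the threshold (limma adjusted p under 0.05). Genes that reached 1 TPM in 4 or more libraries were tested. Of these 7827 genes 131 passed (1.67%), and all 9 genes were among those tested. At an unadjusted limma p under 0.05 kay was the 1 of the 9, against 12.1% of all tested genes. With limma's voom on the recovered reads, none of the 9 was called either (1.13% of 7761 genes were), and kay was again the 1 gene at an unadjusted p under 0.05 (11.1% of all). For none of the 9 genes were the 2 groups fully separated, a pattern seen in 7.77% of tested genes (4.52% with the mutant lower). Log2 fold changes of TPM + 1, mutant minus WT, lay below 0 for 7 of the 9, with a median of −0.18. Over all tested genes 58.3% lay below 0, with a median of −0.06.

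The genes spanned a wide range of abundance, and their order was clear in part. In WT the order of mean levels was puc, kay, Jra, Mmp2, dia, TM4SF, cher, Mmp1 and Timp. The ranges of the 4 WT libraries did not overlap between kay and Jra, between Jra and Mmp2, or between dia and TM4SF. The neighbours puc and kay overlapped, each being the higher one in 2 of the 4 libraries, and so did Mmp2 and dia. TM4SF, cher, Mmp1 and Timp overlapped along that order, although Mmp1 exceeded Timp in each of the 4 WT libraries. In the mutant the first 5 places were held by the same genes in the same order, and Timp stood above cher, Mmp1 and TM4SF, with overlapping ranges. On the mean over all libraries puc stood at the 86.1 percentile of tested genes and kay at the 85.0, while cher, TM4SF, Timp and Mmp1 stood at the 3.99, 3.08, 3.10 and 0.882 percentiles.

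**Figure D1:**
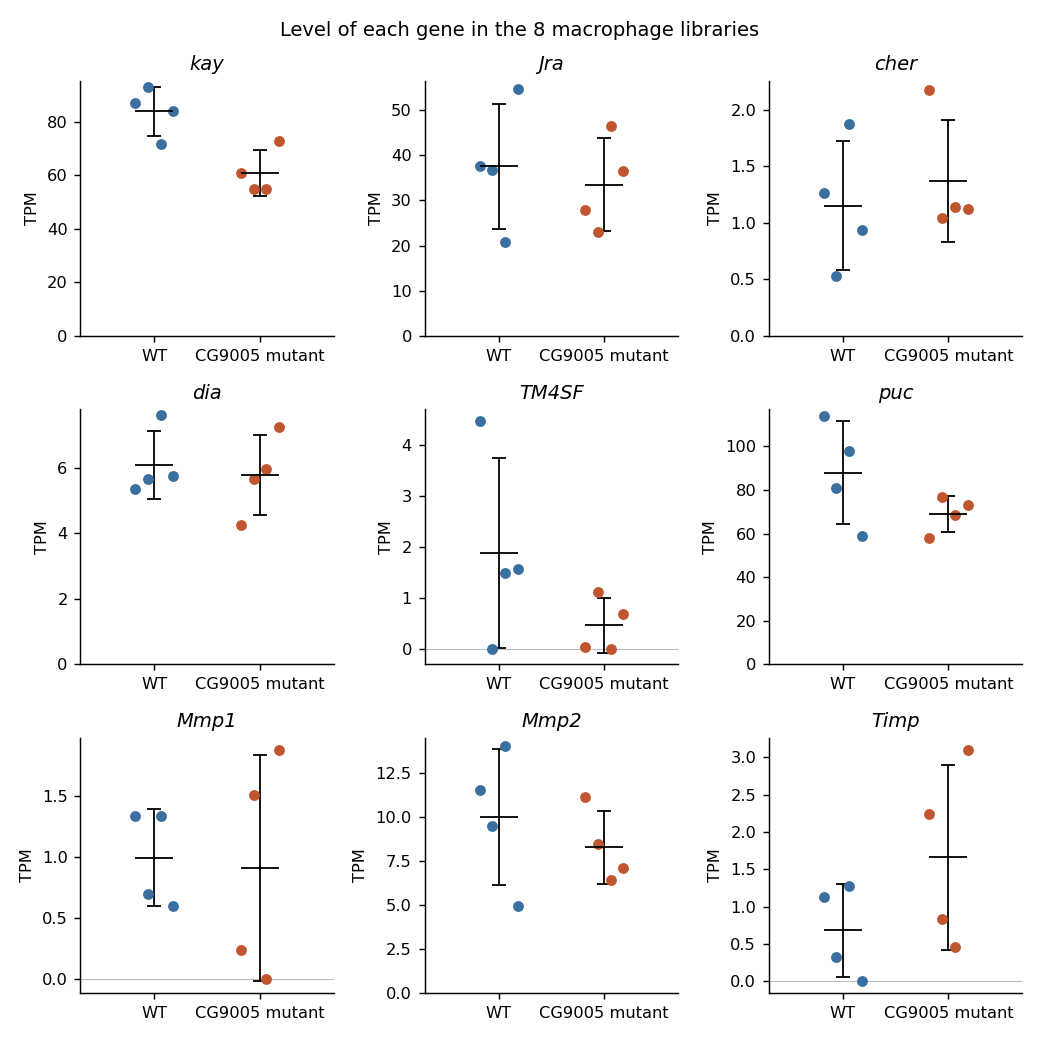
Level in TPM (vertical axes, 1 scale per gene) of the 9 genes in WT and CG9005 mutant libraries, with each point a library, the long dash the mean and the bars the SD (n = 4). The 2 groups overlap in every panel, and for kay 3 of the 4 mutant libraries lie below all WT libraries.

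The Fos gene kay (FBgn0001297, chromosome 3R, 29765995 to 29794113, plus strand, BDGP6) came closest to a difference in the limma fit used here. Its level was 86.9, 93.1, 71.5 and 83.9 TPM in WT replicates 1 to 4 and 60.9, 54.8, 54.7 and 73.0 TPM in mutant replicates 1 to 4. All 4 mutant libraries lay below the WT mean, and only mutant replicate 4 reached into the WT range, just above WT replicate 3. The means were 83.9 ± 9.06 and 60.8 ± 8.59 TPM (SD, n = 4). Its log2 fold change was −0.46 (SE 0.15, limma adjusted p = 0.235), with an unadjusted limma p of 0.0123 in that model across all genes. Its 95% interval of −0.80 to −0.12, which is not corrected for the number of genes, corresponds to 0.575 to 0.919 times the WT value. The level rested on 5509 to 9869 reads per library. The SD within groups was 0.18 on the log2 scale, smaller than that of all but 14.6% of the 676 genes of like level. These are sorted pools, in which fewer cells expressing a gene and less RNA per cell cannot be told apart.

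Its partner Jra, the Jun gene (FBgn0001291, chromosome 2R, 10096480 to 10098556, plus strand), showed no such shift. Jra was at 37.7, 36.8, 20.8 and 54.7 TPM in the WT libraries and at 27.8, 23.1, 46.5 and 36.6 TPM in the mutant libraries. The whole mutant range lay inside the WT range. The log2 fold change was −0.13 (95% interval −0.79 to 0.52, limma adjusted p = 0.920), so a change to between 0.580 and 1.44 times the WT value was not resolved. Jra varied more between replicates than 89.3% of the 1093 genes of like level.

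The balance of both AP-1 subunits within a library is free of the scaling between libraries. The log2 ratio of kay to Jra, taken on TPM + 1, was 1.18, 1.32, 1.74 and 0.61 in WT and 1.11, 1.21, 0.23 and 0.98 in the mutant. Fos mRNA thus exceeded Jun mRNA in all 8 libraries. The mean ratio was 1.21 ± 0.47 in WT and 0.88 ± 0.45 in the mutant, a difference of −0.33 (two-sided exact permutation p = 0.343, adjusted over 4 ratios 0.457). It ranged from −0.53 without WT replicate 4 to −0.11 without mutant replicate 3, and was −0.15 without WT replicate 3.

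The JNK phosphatase gene puc (FBgn0243512, chromosome 3R, 8105332 to 8122294, plus strand) was the most abundant of the 9 genes on average. It stood at 114, 81.1, 97.9 and 58.9 TPM in WT and at 57.9, 77.0, 68.5 and 73.3 TPM in the mutant. WT replicates 1 to 3 exceeded every mutant library, and WT replicate 4 lay among the lowest of all. For puc the log2 fold change was −0.31 (SE 0.20, 95% interval −0.76 to 0.14, limma adjusted p = 0.615). It was −0.17 without WT replicate 1 and −0.49 without WT replicate 4 (limma adjusted p = 0.292). The within-group spread was 26.9% of the mean in WT and 12.0% in the mutant.

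The effectors of the actin cortex were at low or moderate levels and did not separate the genotypes. The formin gene dia (FBgn0011202, chromosome 2L, 20758144 to 20768053, plus strand), whose protein builds unbranched actin filaments downstream of Rho1, was at 5.33, 5.65, 7.60 and 5.73 TPM in WT, and at 4.25, 5.64, 5.95 and 7.23 TPM in the mutant. Its log2 fold change was −0.07 (95% interval −0.63 to 0.49, limma adjusted p = 0.958). It was among the steadier genes of its level, with a smaller within-group SD than all but 6.91% of 1418 genes.

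The filamin gene cher (FBgn0014141, chromosome 3R, 17091533 to 17125389, minus strand), an actin crosslinker, was at 1.26, 0.530, 1.88 and 0.933 TPM in WT. In the mutant it was at 2.17, 1.04, 1.14 and 1.12 TPM. Mutant replicates 2 to 4 lay close together inside the WT range, and mutant replicate 1 stood above every other library. The log2 fold change was 0.15 (95% interval −0.61 to 0.92, limma adjusted p = 0.920), on 68 to 264 reads. It was 0.00 without mutant replicate 1 and likewise without WT replicate 2.

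TM4SF (FBgn0020372, chromosome 2R, 23878197 to 23880860, plus strand), a membrane protein of the tetraspanin family, was the most erratic of the group. It was at 4.47, 0, 1.48 and 1.56 TPM in WT and at 0.0319, 1.11, 0 and 0.676 TPM in the mutant, that is, on 158, 0, 39 and 47 reads and on 1, 35, 0 and 23 reads. WT replicates 1, 3 and 4 lay above all mutant libraries, while WT replicate 2 had no read. A count of 0 allows up to 0.0906 TPM in WT replicate 2 and 0.0900 TPM in mutant replicate 3, counting error only. The log2 fold change was −0.81 (95% interval −1.96 to 0.34, limma adjusted p = 0.604). It was −0.42 without WT replicate 1 and −1.24 without WT replicate 2. TM4SF passed the filter with exactly 4 libraries at 1 TPM or more, 3 of them WT.

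**Figure D2:**
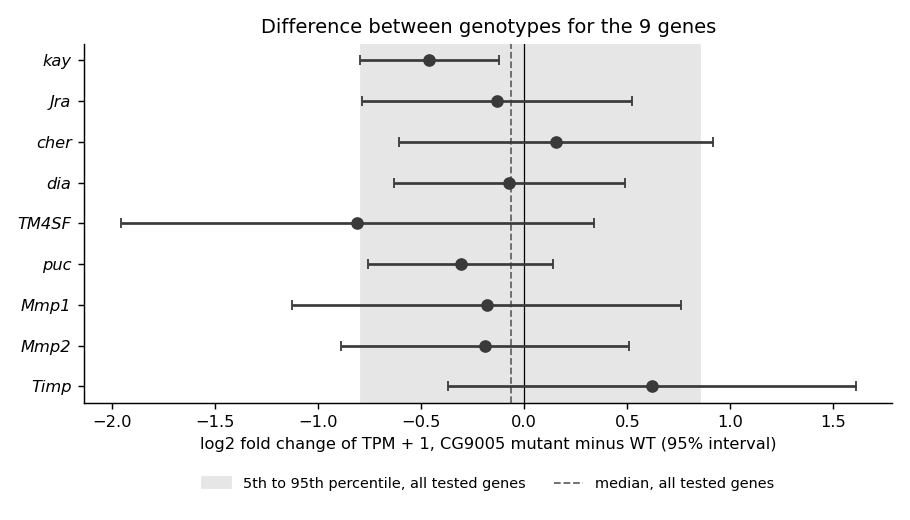
Log2 fold change of TPM + 1 (horizontal axis, mutant minus WT) for the 9 genes, with points for the limma estimate and bars for its 95% interval. The interval of kay (−0.80 to −0.12) lies below 0 before correction for the number of genes, and the other 8 intervals include 0.

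Of the proteases, Mmp2 (FBgn0033438, chromosome 2R, 9611139 to 9683858, minus strand), which is anchored at the cell surface, was the more abundant. Mmp2 was at 11.5, 9.46, 14.0 and 4.92 TPM in WT and at 11.1, 8.46, 6.40 and 7.10 TPM in the mutant. The mutant libraries all lay inside the WT range. For Mmp2 the log2 fold change was −0.19 (95% interval −0.89 to 0.51, limma adjusted p = 0.881). It was −0.46 without WT replicate 4, −0.33 without mutant replicate 1 and between −0.10 and −0.01 without WT replicate 1, WT replicate 3 or mutant replicate 3.

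Mmp1 (FBgn0035049, chromosome 2R, 24671294 to 24688184, minus strand), largely a secreted enzyme and known elsewhere as a target of AP-1, was near the lower limit of the filter. It was at 1.34, 0.698, 1.33 and 0.600 TPM in WT and at 0.240, 1.50, 0 and 1.88 TPM in the mutant. The mutant libraries split, 2 above all WT libraries and 2 below them, while WT stayed between 36 and 94 reads. The split gave a mean log2 fold change of −0.18 and a wide interval (95%, −1.13 to 0.76, limma adjusted p = 0.922).

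The inhibitor gene Timp (FBgn0025879, chromosome 3R, 10203875 to 10213007, minus strand) was at 1.12, 0.323, 1.27 and 0 TPM in WT and at 2.24, 0.828, 0.459 and 3.10 TPM in the mutant. Mutant replicates 1 and 4 exceeded all WT libraries, and the other 2 lay within the WT range. These values rested on 0 to 26 reads in WT and 10 to 69 reads in the mutant. The log2 fold change was 0.62 (95% interval −0.37 to 1.61, limma adjusted p = 0.663), the highest estimate of the 9 genes. Leaving out mutant replicate 4 gave 0.37, and leaving out mutant replicate 3 gave 0.87.

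The log2 ratio of Mmp2 to Timp on TPM + 1 was 2.56, 2.98, 2.72 and 2.57 in WT and 1.90, 2.37, 2.34 and 0.98 in the mutant. All 4 mutant libraries lay below all WT libraries, with means of 1.90 ± 0.65 and 2.71 ± 0.20. The difference of −0.81 had a two-sided exact permutation p of 0.0286, the smallest that 70 assignments can give. Adjusted over the 4 ratios it was 0.114. A single ratio at the smallest p cannot pass this adjustment, so the lack of a call here decides nothing. Without mutant replicate 4 it was −0.50. It rested in part on the pseudocount, since with 0.1 or 5 in place of 1 the exact permutation p was 0.114 for each. The ratio of Mmp1 to Timp differed by −0.80 (exact permutation p = 0.114, adjusted 0.229; −0.50 without mutant replicate 1) and that of Mmp1 to Mmp2 by 0.01 (exact permutation p = 1.00).

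**Figure D3:**
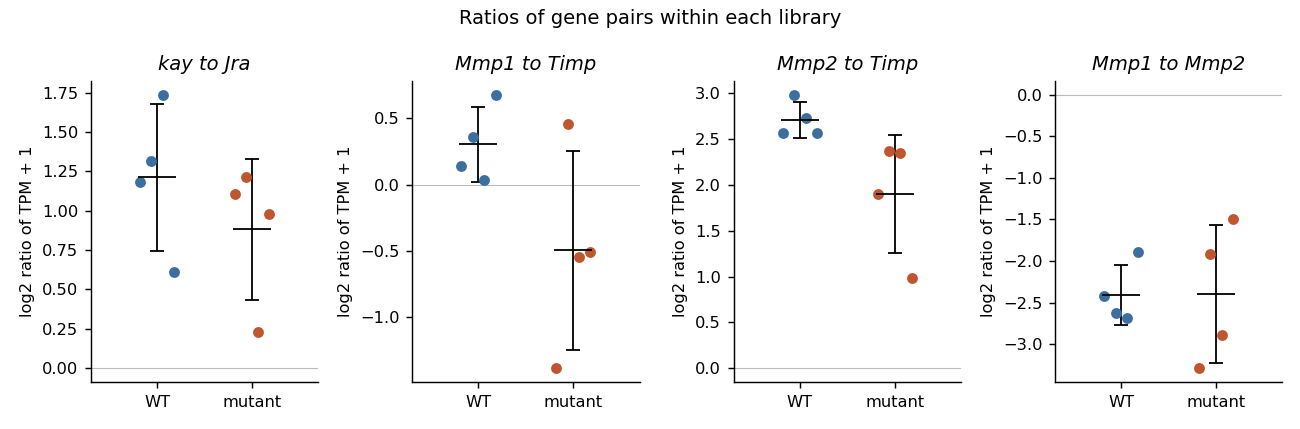
Log2 ratio of TPM + 1 between 2 genes of the same library (vertical axes, 1 scale per pair), with each point a library, the long dash the mean and the bars the SD (n = 4). The ratio of Mmp2 to Timp is lower in all 4 mutant libraries than in all 4 WT libraries, and the other 3 ratios overlap.

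The reads of the low genes varied widely between replicates. The variance of the reads of TM4SF was 75.5 times its mean in WT and 20.0 times in the mutant, a ratio that takes in the depth differences between libraries. For Mmp1 the ratio was 10.9 and 63.6, for Timp 11.0 and 20.9, and for cher 24.2 and 22.7. The lowest ratio among the 9 genes was that of dia in WT, at 1.93. The SD on the log2 scale of TM4SF exceeded that of 72.3% of genes of like level, against 51.4% for Timp, 42.1% for Mmp1 and 11.0% for cher.

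Part of each exon length is shared with a gene on the opposite strand for 6 of the 9 genes, and whether the counting used strand is not given in the sources used here. This share was 15.7% of the exon bases of Timp (with Syn), 5.87% of Mmp1 (with Pof), 5.67% of Mmp2 (with the noncoding RNA gene CR44069), 4.31% of cher (with cal1), 2.38% of Jra (with RpLP0-like) and 1.81% of TM4SF (with CG4882). Pof was at 3.03 ± 1.46 TPM (WT) and 1.17 ± 0.82 TPM (mutant) (limma adjusted p = 0.364). For kay, dia and puc no exon base was shared. A noncoding RNA gene within the Mmp2 locus on the same strand, CR44070 (chromosome 2R, 9636996 to 9637673), shares no exon base with it. CR44070 was at 0, 0, 0.447 and 0 TPM in WT and at 5.52, 1.00, 2.72 and 3.59 TPM in the mutant, on at most 3 and on 8 to 44 reads. CR44070 passed the filter on low values only through the mutant libraries, so no test is given for it.

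Upstream of AP-1, 18 of 19 listed genes of the JNK pathway were tested, of which 14 lay below 0 and 4 above. Their median log2 fold change was −0.20, against −0.06 over all tested genes. None was called by limma or by voom, and 2 had an unadjusted limma p under 0.05 (beside 12.1% of all tested genes). These were wnd, a kinase that starts the cascade (7.34 ± 4.20 TPM in WT and 2.44 ± 0.52 in the mutant, log2 fold change −1.17, limma adjusted p = 0.163), and Tab2, an adaptor of the kinase Tak1 (14.5 ± 5.20 and 7.12 ± 1.40 TPM, −0.88, limma adjusted p = 0.214). Cka, a scaffold that links JNK to AP-1, was at 29.2 ± 5.15 and 22.1 ± 2.21 TPM (−0.37, limma adjusted p = 0.458). For these 3 genes and the kinase gene Src42A (3.95 ± 1.18 and 2.55 ± 0.40 TPM, limma adjusted p = 0.595) all mutant libraries lay below all WT libraries. They are 4 of the 18 tested, beside 4.52% of all tested genes with the mutant lower. For Tab2 the gap was very narrow, from a mutant maximum of 8.763 TPM to a WT minimum of 8.766 TPM. The summed level of the list was 592 to 673 TPM in WT and 477 to 572 TPM in the mutant. This sum weighs the most abundant genes most. These were the kinase genes msn (136 ± 22.9 and 120 ± 12.7 TPM) and bsk (145 ± 58.3 and 91.0 ± 28.9 TPM), each with overlapping groups.

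The JNK gene bsk itself, named here after its values were seen, was at 124, 207, 74.8 and 176 TPM in WT, and at 106, 55.1, 121 and 81.8 TPM in the mutant, with overlapping groups (limma adjusted p = 0.481). Of 14 listed JNK and AP-1 target genes 8 were tested, 6 below 0 and 2 above, with a median of −0.33. None was called by limma or voom, and 1 had an unadjusted limma p under 0.05 (beside 12.1% of all tested genes). That was Rab30, a small GTPase, at 13.1 ± 8.01 TPM (WT) and 6.09 ± 1.79 TPM (mutant) (limma adjusted p = 0.402). The ETS factor gene Ets21C was at 2.20 ± 0.94 and 1.03 ± 0.50 TPM (limma adjusted p = 0.526), and the profilin gene chic at 2262 ± 293 and 1898 ± 286 TPM (limma adjusted p = 0.494).

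Cells of other kinds use the same pathway, so their markers were read beside these values. The amnioserosa, an extraembryonic epithelium with strong JNK activity, was represented by 8 markers. Of these 7 were tested, 5 below 0 and 2 above, with a median of −0.69 and no call by limma or voom. At an unadjusted p under 0.05 there were 3 with limma and 4 with voom, beside 12.1% and 11.1% of all tested genes. Their summed level was 94.0, 102, 147 and 127 TPM in WT, and at 94.4, 79.3, 79.4 and 56.8 TPM in the mutant. Ance, the highest of them, was at 79.8 ± 16.8 and 48.6 ± 6.68 TPM with groups that did not overlap (log2 fold change −0.69, limma adjusted p = 0.117), while zen was at 0 in all libraries. Tracheal markers summed to 19.5 to 44.1 TPM in WT and 16.2 to 26.2 in the mutant, all 5 tested of 7 lying below 0, and epidermal markers to 65.9 to 171 and 75.7 to 107 TPM. The part of these cells in the values of kay, puc and the JNK list was not tested. Both fat body markers were at 0.

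The remaining marker lists were low apart from that of crystal cells, the melanising blood cells. Of 4 crystal cell markers 3 were tested, all below 0 with a median of −0.39, and 1 was called (beside 1.67% of all tested genes). This was the prophenoloxidase gene PPO1, named after its values were seen, at 50.8, 56.7, 72.5 and 67.3 TPM in WT and at 26.5, 15.6, 11.3 and 13.7 TPM in the mutant. All mutant libraries lay below all WT libraries (log2 fold change −1.88, limma adjusted p = 0.00278, voom adjusted p = 0.000438), and the call was lost under 1 of 19 alternatives, the stage field as covariate. The list summed to 444 to 822 TPM in WT and 406 to 537 TPM in the mutant, with PPO2 the highest at 568 ± 151 and 437 ± 62.1 TPM. The part of crystal cells in the values of the 9 genes was not tested. Neuronal and glial markers summed to 46.1 to 81.9 and 57.7 to 76.3 TPM, most of it elav at 51.4 ± 12.2 and 55.0 ± 7.02 TPM. All 3 tested of these 8 lay above 0, with a median of 0.77 and no call (1 at an unadjusted limma p under 0.05, beside 12.1% of all tested genes). The log2 fold change of elav was 0.11, and fne was at 2.98 ± 1.53 and 5.65 ± 1.79 TPM (limma adjusted p = 0.390). For nSyb, with a WT mean of 0.836 TPM and a mutant minimum of 1.33 TPM, the mutant libraries alone sufficed to pass the filter. Of the untested markers repo and sim had lower means in the mutant, and Syt1, brp and onecut higher ones. Mesoderm and muscle markers summed to 45.1 to 64.1 and 52.2 to 88.6 TPM, led by Mef2 at 13.9 ± 1.54 and 15.1 ± 4.23 TPM. Of the 6 tested 5 lay above 0, with a median of 0.22 and no call (2 at an unadjusted limma p under 0.05, beside 12.1% of all tested genes). These 2 were bin, at 3.87 ± 3.70 and 9.15 ± 2.69 TPM (limma adjusted p = 0.304), and Act57B, at 1.71 to 5.70 and 6.47 to 18.3 TPM with no overlap (limma adjusted p = 0.312). The 1 below 0 was bap, at 10.8 ± 3.78 and 6.38 ± 3.93 TPM (limma adjusted p = 0.478). Mef2 and twi had log2 fold changes of 0.08 and 0.07. Gut markers summed to 13.4 to 29.2 and 8.17 to 20.4 TPM, all 3 below 0 and led by fkh at 10.6 ± 3.36 and 6.81 ± 3.22 TPM. The highest tracheal and epidermal markers were kni, at 11.2 ± 6.09 and 6.71 ± 2.32 TPM, and shg, at 45.9 ± 17.5 and 36.4 ± 9.16 TPM.

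Among other bZIP factors, 14 of 16 were tested, 8 above and 6 below 0, with a median of 0.03 and no call by limma or voom. Of the 14, 2 had an unadjusted limma p under 0.05, beside 12.1% of all tested genes. Pdp1 was at 37.1 ± 4.77 TPM (WT) and 58.9 ± 12.0 TPM (mutant) (limma adjusted p = 0.166). Irbp18, a partner of stress-responsive bZIP factors, was at 41.4 ± 12.2 and 59.0 ± 9.67 TPM (limma adjusted p = 0.385). The border cell factor gene slbo was at 1.63 ± 1.60 and 3.36 ± 1.79 TPM (limma adjusted p = 0.619).

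The genes that act with dia and cher on the cortex ranged from low to high levels, with no call. All 11 genes listed for Rho1 and cortical myosin were tested, 8 below 0 and 3 above, with a median of −0.14 and 1 at an unadjusted limma p under 0.05. That was flw, a catalytic subunit of the myosin phosphatase, at 38.1 ± 3.96 TPM (WT) and 25.9 ± 3.49 TPM (mutant) (log2 fold change −0.54, limma adjusted p = 0.202). For flw the groups did not overlap, with the mutant lower. The myosin light chain gene sqh was at 437 ± 60.2 and 380 ± 39.4 TPM (limma adjusted p = 0.616), and the moesin gene Moe at 96.0 ± 23.4 and 75.3 ± 5.91 TPM (limma adjusted p = 0.521). Of 9 actin crosslinkers tested, 6 lay below 0 and 3 above (median −0.03, 1 at an unadjusted limma p under 0.05). The fascin gene sn was at 1118 ± 129 and 947 ± 84.3 TPM (limma adjusted p = 0.448), far above the filamin cher in every library. The fimbrin gene Fim was at 282 ± 77.3 and 241 ± 20.5 TPM (limma adjusted p = 0.736), and the spectraplakin gene shot at 4.82 ± 1.50 and 7.58 ± 0.27 TPM (limma adjusted p = 0.382). For shot the groups did not overlap, with the mutant higher. Of the other formins, 4 of 5 were tested, with a median of −0.03 and 1 at an unadjusted limma p under 0.05. Frl was at 36.2 ± 9.71 and 23.0 ± 5.43 TPM (limma adjusted p = 0.315), DAAM at 2.58 ± 0.55 and 3.46 ± 0.54 TPM (limma adjusted p = 0.717) and capu at 1.58 ± 0.79 and 1.17 ± 0.43 TPM (limma adjusted p = 0.880). By voom no gene of these 3 lists was called. Their counts at an unadjusted limma p under 0.05 stand beside 12.1% of all tested genes.

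The 1 called gene of the pathway lists was a tetraspanin, of the family of TM4SF. It was 1 of 14 tested on that list, beside 1.67% called over all tested genes. The tetraspanin gene lbm (FBgn0016032, chromosome 2R, 7049238 to 7051964, plus strand), known from motor neuron growth cones, was at 4.01, 3.75, 5.54 and 1.69 TPM in WT and at 31.4, 27.2, 24.0 and 27.1 TPM in the mutant. Every mutant library stood far above every WT library, on 361 to 444 reads against 23 to 66. It rose 7.31-fold in mean level (log2 fold change 2.64, SE 0.28, limma adjusted p = 0.000818). The call held with each library left out in turn (limma adjusted p 0.00104 to 0.00532) and with voom (adjusted p = 0.00428). It did not hold with the stage label as a covariate (limma adjusted p = 0.114). That label counts up along the libraries and is lower in every WT library than in every mutant library. The neuronal and the muscle markers tested also had medians above 0, with elav and Mef2, the highest of each list, at 0.11 and 0.08. The part of such cells in the value of lbm was not tested. No annotated gene overlaps lbm, and it lies on the same chromosome arm as CG9005. So do Jra, TM4SF, Mmp1 and Mmp2, none of which was called.

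The other tetraspanins gave no second call. Of 35 listed besides TM4SF, 14 were tested, 9 above 0 and 5 below, with a median of 0.14. Tsp3A, which helps the protease Kuzbanian in Notch signalling, was at 18.8, 25.9, 22.1 and 22.0 TPM in WT, and at 6.43, 12.5, 11.9 and 12.1 TPM in the mutant, with no overlap (log2 fold change −1.02, limma adjusted p = 0.0693). Tsp42Ed was at 13.0 ± 2.89 and 26.1 ± 12.4 TPM (limma adjusted p = 0.296). TM4SF, at 1.88 ± 1.87 and 0.456 ± 0.538 TPM, was below lbm, Tsp3A and Tsp42Ed in mean level in both genotypes.

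**Figure D4:**
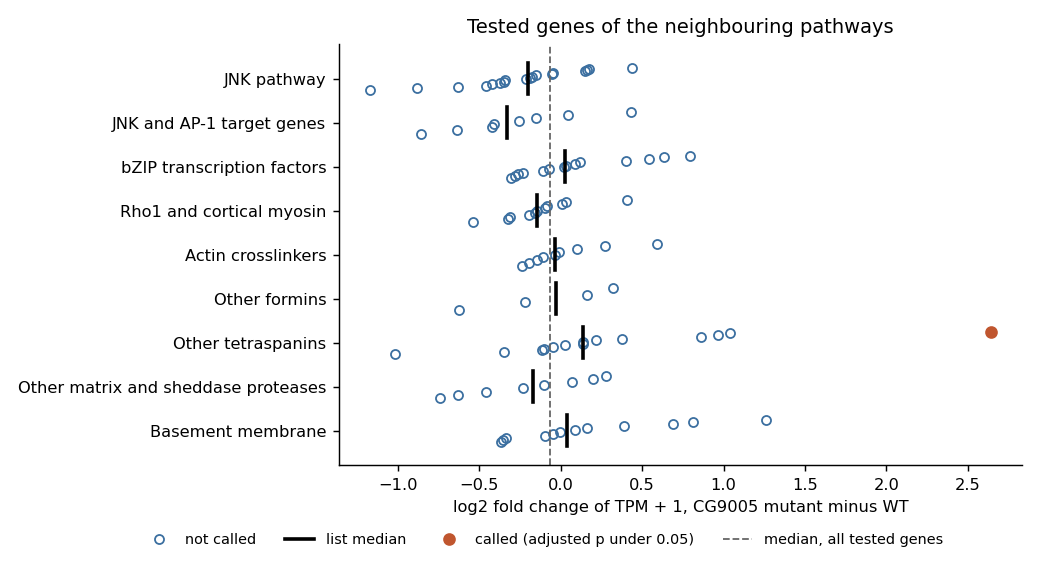
Log2 fold change of TPM + 1 (horizontal axis, mutant minus WT) of the tested genes in 9 lists around the AP-1 and protease genes, with open circles for genes not called, a filled circle for the called gene, black bars for list medians and a dashed line for the median of all tested genes. The tetraspanin lbm at 2.64 is the 1 called gene.

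Of other matrix and sheddase proteases, 15 of 16 listed names were found and 8 genes were tested, 5 below 0 and 3 above, with a median of −0.17. None was called by limma or by voom or had an unadjusted limma p under 0.05. The tolloid-like proteases tok and tld were at 9.74 ± 3.92 and 2.78 ± 1.28 TPM in WT and at 5.67 ± 1.23 and 1.31 ± 0.92 TPM in the mutant (limma adjusted p = 0.446 and 0.512). The gene AdamTS-B, listed as CG4096, was at 5.27 ± 1.23 and 3.53 ± 0.68 TPM (limma adjusted p = 0.564). Its groups narrowly did not overlap, with a WT minimum of 4.03 TPM and a mutant maximum of 4.01 TPM. The sheddase gene kuz, the highest of the list and named after its values were seen, was at 102 ± 34.2 and 83.7 ± 4.11 TPM (limma adjusted p = 0.721), well above Mmp2.

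All 12 basement membrane genes, which encode substrates and neighbours of the proteases, were tested, 6 above and 6 below 0, with a median of 0.04. None was called by limma, and 2 had an unadjusted limma p under 0.05, beside 12.1% of all tested genes. By voom 1 was called, the nidogen gene Ndg, beside 1.13% of all. Ndg was at 2.90 ± 1.48 TPM (WT) and 8.18 ± 2.63 TPM (mutant) (log2 fold change 1.26, limma adjusted p = 0.0980), with groups that did not overlap. The papilin gene Ppn was at 323 ± 29.4 and 251 ± 36.9 TPM (−0.37 on the log2 scale, limma adjusted p = 0.285). Mp, a collagen gene, was at 1.09 ± 0.44 and 2.97 ± 2.16 TPM (limma adjusted p = 0.456).

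In the authors' deposited table, where 0.579% of genes passed the same threshold, none of the 9 genes passed. In that authors' deposited table the log2 fold change was −0.41 for kay, −0.25 for puc, −0.08 for Jra, −0.01 for dia, 0.43 for cher and −0.13 for Mmp2. For the low genes the authors' deposited table gave −1.89 for TM4SF, −1.74 for Mmp1 and 2.02 for Timp, with unadjusted p of 0.342, 0.211 and 0.176. On TPM + 1 the log2 fold changes here were −0.81, −0.18 and 0.62, a scale on which the added 1 moves low genes towards 0. Voom on the recovered reads, which does not add 1 TPM, gave −1.94, −1.77 and 1.97. For kay the unadjusted p in the authors' deposited table was 0.873, against an unadjusted limma p of 0.0123 here. The lowest p of the 9 genes in that table was the one of Timp. The sign was the same as here for all 9 genes.

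**Figure D5:**
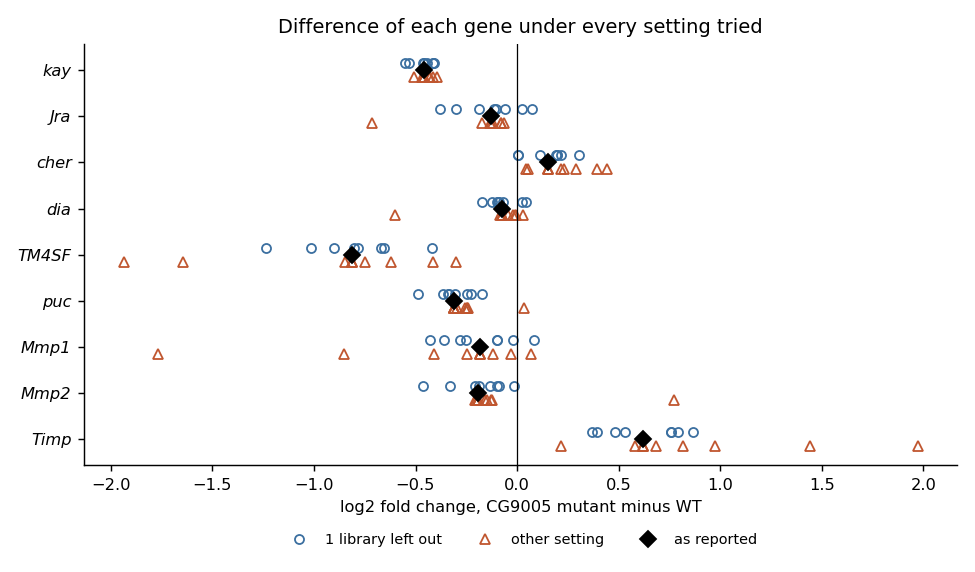
Log2 fold change (horizontal axis, mutant minus WT) of the 9 genes as reported (diamonds), with 1 library left out (circles) and under the other settings tried (triangles). The estimates of kay stay between −0.55 and −0.40, while those of TM4SF, Mmp1 and Timp spread most.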

How the data were processed

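Polyadenylated RNA of sorted embryonic macrophages was sequenced in 4 WT and 4 CG9005 mutant libraries. The deposited values are transcripts per 1000000 (TPM) per gene and library, made by the authors. The submitters' processing notes list genome build BDGP6, R 3.4.4 with limma and edgeR, HTSeq 0.5.4p3 and STAR 2.5.1b, with no role for each. The authors' deposited comparison table holds a log2 fold change, a p-value and an adjusted p for each gene, and was used in 1 of 4 identical copies.

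Groups came from the titles. Stage 11 is the stage in the growth protocol, whereas a stage field counts from 11 to 18 over the libraries. Every WT library lies below every mutant library in that field, so it served only as an alternative covariate. TPM multiplied by union exon length (Ensembl release 115 of BDGP6) gave whole reads, within 0.05, for all 72 values of the 9 genes. Limma 3.58.1 in R 4.3.3 was fitted to log2(TPM + 1) with an intensity trend over genes that reached 1 TPM in 4 or more libraries (3 with 1 library left out), with Benjamini and Hochberg adjustment. Genes with an adjusted p under 0.05 are the called ones. Genes of like level are tested genes whose mean log2 value lies within 0.5. Ratios used two-sided exact permutation tests (scipy 1.17.1). Floors are 3 reads per library and, like read counts, cover counting error only. The fit was tested on simulated data.

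The genes named by rule are the 9 members, the genes that overlap them, CG9005, and from each pathway list the called genes or else those among the 3 smallest p, plus the highest marker of a cell type. All other genes given with values, among them Src42A, fne, bin and Act57B, were named after their values were seen. Members and lists were chosen with earlier results of these data known. The alternatives tried were to leave out each library, the replicate block, the stage field, other pseudocounts, filters and scalings, no trend, array weights and voom.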

Additional observations from a re-analysis of the deposited data

Results flagged for a closer look

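The level of cher in mutant replicate 1 was 2.17 TPM, against 1.14 TPM in the next mutant library. The gap took up 0.916 of the range of the 4 mutant libraries (Dixon's test, 95% level). It was the 1 such case among 26 sets of 4 values examined, where chance gives about 1 in 20 sets.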

How the results depend on the processing

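No call was made for any of the 9 genes under any alternative run. For the 4 ratios the smallest exact permutation p possible was 0.0571 with 1 library left out and 0.125 with the replicate block, so a call could not be made there. With all 8 libraries it was 0.0286, and a single ratio at that p could not pass the adjustment over 4 ratios either. The gene kay kept its sign under all 19, with limma adjusted p of 0.143 to 0.642, and cher, TM4SF and Timp kept theirs under all 18 that tested them (the filter of 5 TPM removed these 3 and Mmp1). The signs of dia, Jra and Mmp1 turned when single libraries were left out, with values from −0.17 to 0.0441, from −0.38 to 0.0730 and from −0.43 to 0.0812. With the stage field as covariate puc was at 0.0355 and Mmp2 at 0.77, and with array weights dia was at 0.0316 and Mmp1 at 0.0683. The ratio of Mmp1 to Mmp2 ranged from −0.29 to 0.31 with 1 library left out and was −0.65 with a pseudocount of 0.1.

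The number of called genes, 131 in all, was 71 to 110 with 1 library left out (72, 74 and 86 without WT replicates 1, 2 and 4, and 73 and 71 without mutant replicates 2 and 4). It was 9 with the stage field, 76 with no filter and 82 with the filter of 5 TPM. With the replicate block it was 52. Same-numbered libraries had correlations of −0.15 to 0.08 in their deviations from group means, and 2 of 8 libraries correlated best with their own number. The labels do not say whether same-numbered libraries were prepared together, and correlations this weak cannot decide it.

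The genes kay, puc and Jra had at least 370 reads per library. For TM4SF, Mmp1 and Timp, with 0 to 158 reads, estimates depended on the pseudocount. They went from −0.30 to −1.65 for TM4SF, from −0.03 to −0.85 for Mmp1 and from 0.22 to 1.44 for Timp. With voom they were −1.94, −1.77 and 1.97.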
